A study of Mus musculus with 7 samples.

Results

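A set of 10 genes that mark resident liver macrophages, or macrophages in general, was followed in fasted livers of wild type and Sox17 mutant mice: Csf1r, Clec4f, Vsig4, Timd4, Marco, Cd163, Cd5l, Emr1 (now Adgre1), Cd68 and Lyz2. They were taken as all array probes, controls aside, that carry one of these gene names, which gave 10 of 36492 gene names and 13 of 55681 probes. All 10 genes passed the filter on dim signals. Kupffer cells are the macrophages of the liver sinusoids. They take up bacteria, dying cells and old red blood cells from the blood with scavenger, complement and lectin receptors, and they depend on signalling through the receptor Csf1r. Some of these genes, such as Clec4f, are used as markers of Kupffer cells themselves, while others, such as Cd68 and Lyz2, are shared by macrophages and monocytes of many tissues.

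Livers came from 3 wild type (WT) and 4 SHIVA mice, with 1 single-colour Agilent array per mouse. All were females on C57BL/6, aged 8 to 12 weeks and fasted for 24 h. SHIVA mice carry a mutation induced with the mutagen ENU in the HMG domain, the DNA-binding part, of Sox17. The study's supplement describes all viable mutants as heterozygous and the line as kept by repeated crosses to C57BL/6, and the mutation is in every cell of the animal. The comparison asks how fasted livers differ when Sox17 is mutated. Each array had 44.5% to 48.7% of its probes well above background, no array had a saturated spot, and any pair of arrays correlated between 0.972 and 0.9931. All 7 arrays lay on 1 slide, WT in row 1 and SHIVA in row 2, so place on the slide and genotype cannot be told apart. Sox17 itself had log2 signals of 4.53, 3.42 and 3.93 in WT livers, not well above background in the liver with 3.42, and of 4.63, 4.47, 4.77 and 4.71 in SHIVA livers (log2 fold change 0.69, limma adjusted p = 0.280). A point mutation need not alter this signal, so it does not check the genotypes.

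Each value below is the log2 of a quantile-normalized spot signal, which compares mice for one probe and not one gene with another. A log2 fold change is the mean of the SHIVA livers minus that of the WT livers, given with its standard error (SE) and the Benjamini-Hochberg adjusted p of limma over all genes tested. Each probe is a 60-base oligonucleotide placed on the mouse genome build mm9 by the array files. The exons that the probes lie in were not analysed here. The sequences of 3 probes are given, 5′ to 3′, since the results turn on what they read: Clec4f as the marker closest to Kupffer cells, Cd163 as the gene whose genotypes separated, and Lyz2 because a closely related copy, Lyz1, exists.
Clec4f: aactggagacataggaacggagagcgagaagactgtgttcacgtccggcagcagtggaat
Cd163: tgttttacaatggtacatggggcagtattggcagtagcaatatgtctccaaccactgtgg
Lyz2: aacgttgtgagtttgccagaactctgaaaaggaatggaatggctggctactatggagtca

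By limma, 0 of the 10 genes passed the threshold of 0.05 on the adjusted p, where 0.375% of all 20002 genes tested did, 0.185% with higher and 0.19% with lower SHIVA livers. At an unadjusted p under 0.05 limma gave 2 of the 10, Marco and Cd163, beside 13.3% of all genes, and the methods' t-test gave 1 of the 10, Cd163, at that unadjusted level and 0 after adjustment. Fitted values were above 0, meaning higher in SHIVA livers, for 9 of the 10 genes and for 48.8% of all genes. The median log2 fold change of the 10 genes was 0.275, beside -0.0074 over all genes. The exception was Cd163, the only one of the 10 whose WT and SHIVA livers did not overlap. Genotypes lay apart for 12.2% of all genes, 6.14% with SHIVA livers higher and 6.02% with SHIVA livers lower. The 1 gene of 10 is thus near the share of all genes. In whole liver RNA, a difference in the number of macrophages and one in RNA per macrophage cannot be told apart.

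**Figure D1:**
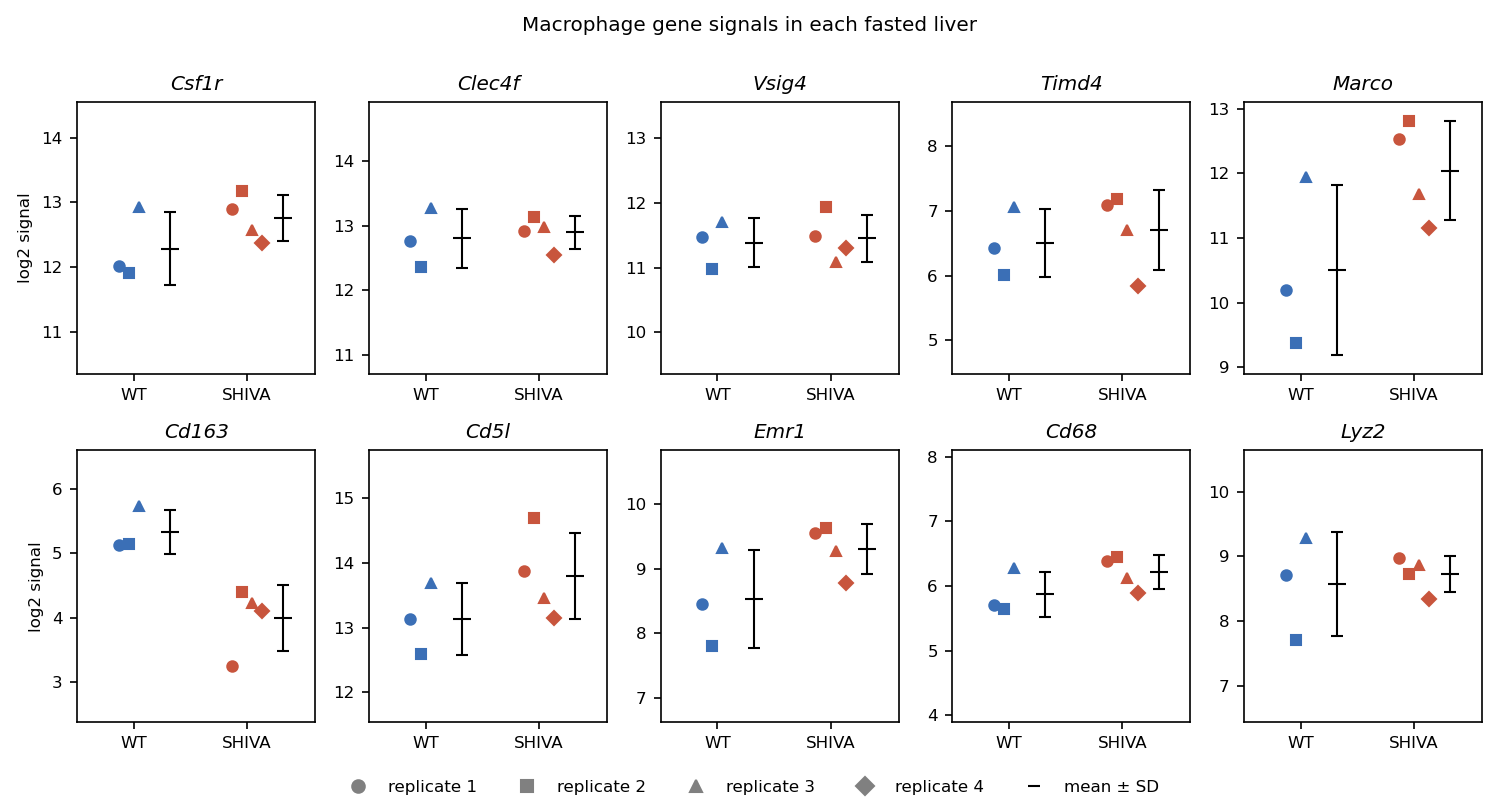
Log2 signal of the 10 macrophage genes in each liver, WT in blue and SHIVA in red, with marker shapes for the replicate number and black bars for the mean ± SD (n = 3 WT and n = 4 SHIVA). Each panel has its own axis range, which spans the same number of log2 units in all panels. WT and SHIVA points overlap in 9 panels and lie apart in Cd163.

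Csf1r encodes the receptor for the growth factors Csf1 and Il34, on which macrophages depend for survival. Its brightest probe lies at chr18:61290725-61290784 on the plus strand. Its log2 signal was 12.01, 11.91 and 12.93 in WT livers 1 to 3 and 12.90, 13.18, 12.57 and 12.37 in SHIVA livers 1 to 4. WT liver 3 stood with the highest SHIVA livers, and the genotypes overlapped. The WT mean was 12.28 ± 0.56 (SD, n = 3), the SHIVA mean was 12.75 ± 0.36 (SD, n = 4), and the log2 fold change was 0.47 (SE 0.29, 95% interval -0.19 to 1.14, limma adjusted p = 0.540). The other probes of Csf1r did not give the same value. One, placed across 361 bases, had a log2 fold change of 0.41 (limma adjusted p over all probes 0.647) and the other -0.09 (adjusted p = 0.908). The sign for Csf1r therefore depends on the probe.

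Clec4f, Vsig4 and Timd4 are surface receptors of resident Kupffer cells, and the mean difference between genotypes was smaller than the SD within either genotype for all of them. Clec4f, a lectin that binds galactose, was read at chr6:83595281-83595339 on the minus strand. The log2 signals were 12.77, 12.37 and 13.28 in WT livers and 12.92, 13.14, 12.98 and 12.55 in SHIVA livers. The WT livers spanned all of the SHIVA livers. Means were 12.80 ± 0.46 (SD, n = 3) and 12.90 ± 0.25 (SD, n = 4), with a log2 fold change of 0.09 (SE 0.24, 95% interval -0.45 to 0.63, limma adjusted p = 0.902). Vsig4, the complement receptor that clears opsonized bacteria from blood, was read at chrX:93442598-93442657 on the minus strand. On the log2 scale the signals were 11.48, 10.98 and 11.71 in WT livers and 11.50, 11.94, 11.09 and 11.30 in SHIVA livers, with wide overlap. The log2 fold change was 0.07 (SE 0.25, 95% interval -0.50 to 0.63, limma adjusted p = 0.938).

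Timd4, a receptor for phosphatidylserine on dying cells, was read at chr11:46657173-46657232 on the plus strand. The arrays gave log2 signals of 6.43, 6.01 and 7.05 in WT livers and 7.09, 7.19, 6.70 and 5.84 in SHIVA livers. The lowest of all 7 was SHIVA liver 4 and the highest SHIVA liver 2, so that the SHIVA range enclosed the WT range. The log2 fold change was 0.21 (SE 0.36, 95% interval -0.61 to 1.03, limma adjusted p = 0.852). For Clec4f, Vsig4 and Timd4 the sign rests on WT liver 2: without it the fitted values were -0.125, -0.138 and -0.0350, and without SHIVA liver 2 that of Vsig4 was -0.0935. The intervals leave room for differences of either sign.

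The scavenger receptors Marco and Cd163 had the widest mean differences, in opposite directions. Marco, which binds bacteria and modified lipoproteins, was read by a probe that the files place at chr1:122371115-122371134 on the minus strand, a span of only 20 bases. Its log2 signal was 10.19, 9.38 and 11.94 in WT livers and 12.53, 12.81, 11.68 and 11.16 in SHIVA livers. WT livers 1 and 2 lay below every SHIVA liver, while WT liver 3 lay above SHIVA livers 3 and 4. Means were 10.50 ± 1.31 (SD, n = 3) and 12.04 ± 0.76 (SD, n = 4), a 2.91-fold difference (log2 fold change 1.54, SE 0.61, 95% interval 0.16 to 2.92, unadjusted p = 0.0331, limma adjusted p = 0.323). With single mice left out, the fitted value lay between 0.976 without WT liver 2 and 2.26 without WT liver 3, with an adjusted p of 0.0616 in the latter case. Marco thus did not pass the test, and the WT livers alone ranged over 2.57 log2 units.

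Cd163, the receptor for complexes of haemoglobin and haptoglobin, was read at chr6:124270436-124270495 on the plus strand. The log2 signals were 5.13, 5.14 and 5.72 in WT livers and 3.26, 4.40, 4.23 and 4.11 in SHIVA livers. The highest SHIVA liver lay below the lowest WT liver. Means were 5.33 ± 0.34 (SD, n = 3) and 4.00 ± 0.51 (SD, n = 4), so that WT was 2.51-fold above SHIVA (log2 fold change -1.33, SE 0.29, 95% interval -1.99 to -0.67, unadjusted p = 0.00148, limma adjusted p = 0.124). The probe was dim. In SHIVA liver 1 it was not well above background, and the lowest log2 signal called well above background lay between 3.12 and 3.54 on these arrays. With the mean spot signal the fitted value was -0.68 (adjusted p = 0.0679), with normexp background correction -0.43 (adjusted p = 0.145), and a filter that asks for signal on all arrays leaves the gene out.

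**Figure D2:**
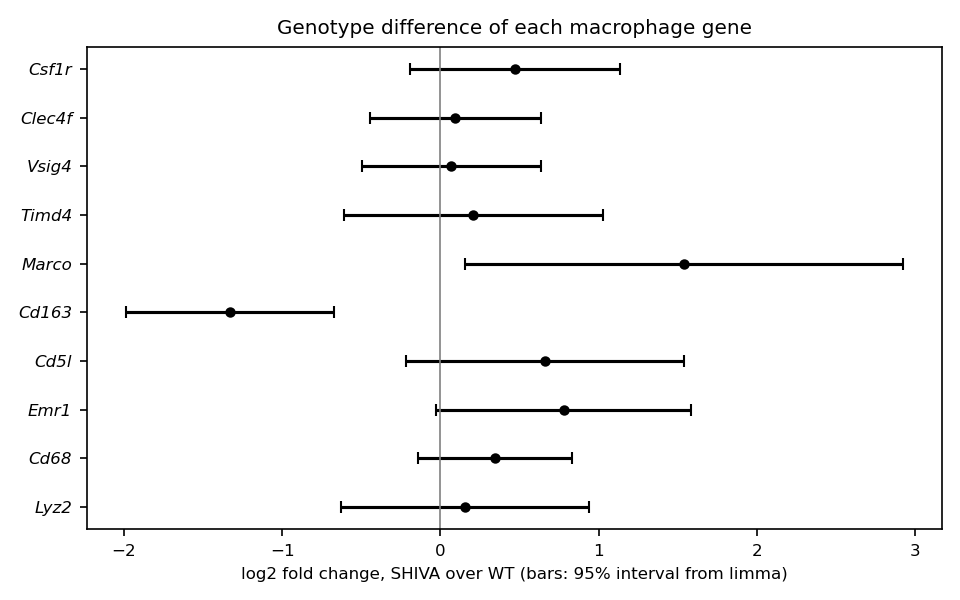
Fitted log2 fold change of SHIVA over WT livers for each of the 10 macrophage genes, with 95% intervals from limma (n = 3 WT and n = 4 SHIVA). The interval of Marco lies above 0 and that of Cd163 below 0, while the other 8 include 0. None of the genes passed after adjustment over all genes.

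Cd5l is a protein that macrophages secrete, known for blocking their death and for acting on lipid synthesis. It was read at chr3:87174823-87174882 on the plus strand. On the log2 scale the signals were 13.13, 12.59 and 13.70 in WT livers and 13.87, 14.70, 13.46 and 13.15 in SHIVA livers. SHIVA liver 2 stood above all others, and the rest overlapped. Means were 13.14 ± 0.55 (SD, n = 3) and 13.80 ± 0.67 (SD, n = 4), a log2 fold change of 0.66 (SE 0.39, 95% interval -0.22 to 1.54, limma adjusted p = 0.516). Without SHIVA liver 2 it was 0.358.

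Emr1, Cd68 and Lyz2 mark macrophages beyond the liver. Emr1 encodes the surface protein F4/80 and was read by a pair of probes, the brighter at chr17:57620350-57620409 on the plus strand. The arrays gave log2 signals of 8.45, 7.81 and 9.33 in WT livers and 9.55, 9.63, 9.28 and 8.77 in SHIVA livers. WT livers 1 and 2 were below all SHIVA livers and WT liver 3 was not. The log2 fold change was 0.78 (SE 0.35, 95% interval -0.03 to 1.58, limma adjusted p = 0.394), and it lay between 0.416 without WT liver 2 and 1.18 without WT liver 3. The second probe gave 7.31, 6.83 and 7.97 in WT livers and 8.42, 8.56, 8.04 and 7.77 in SHIVA livers (log2 fold change 0.83, SE 0.30, limma adjusted p over all probes 0.288). Both probes thus ranked the same WT livers lowest, middle and highest.

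Cd68, a glycoprotein of macrophage lysosomes, was read at chr11:69478979-69479038 on the minus strand. Its log2 signal was 5.70, 5.64 and 6.27 in WT livers and 6.39, 6.45, 6.12 and 5.89 in SHIVA livers, again with WT liver 3 inside the SHIVA range. The log2 fold change was 0.34 (SE 0.21, 95% interval -0.14 to 0.83, limma adjusted p = 0.546). Lyz2, the lysozyme of macrophages and neutrophils, was read at chr10:116719175-116719234 on the minus strand. The log2 signals were 8.71, 7.71 and 9.29 in WT livers and 8.97, 8.73, 8.86 and 8.34 in SHIVA livers. The WT livers enclosed the SHIVA livers, and the log2 fold change was 0.16 (SE 0.34, 95% interval -0.63 to 0.94, limma adjusted p = 0.888). Without WT liver 2 it was -0.276. Lyz1, the related copy, had a log2 fold change of 0.31 (limma adjusted p = 0.693), and whether its transcript binds the Lyz2 probe was not tested.

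The livers kept nearly the same order in most of the 10 genes. WT liver 3 was the highest WT liver in 10 of 10 genes, and WT liver 2 the lowest in 9. SHIVA liver 2 was the highest SHIVA liver in 9 genes, and SHIVA liver 4 the lowest in 8. Over all genes with a value on every array, the same liver held those places in 34.8%, 28.5%, 33.9% and 24.1% of genes. WT liver 3 and SHIVA liver 2 were both the highest of their genotype in 9 of the 10 genes and in 8.18% of all genes. These counts describe genes measured in the same livers and are not independent of each other. Of all 7 livers, SHIVA liver 2 had the highest signal in 7 genes and WT liver 3 in the other 3, while WT liver 2 had the lowest in 8. After centring each gene over the 7 livers, the mean of the 10 genes was -0.26, -0.71 and 0.46 in WT livers 1 to 3 and 0.24, 0.55, 0.04 and -0.32 in SHIVA livers 1 to 4. SHIVA liver 4 thus lay below WT livers 3 and 1, and WT liver 3 above all SHIVA livers but SHIVA liver 2. The SD was larger among WT than among SHIVA livers for 7 of the 10 genes.

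**Figure D3:**
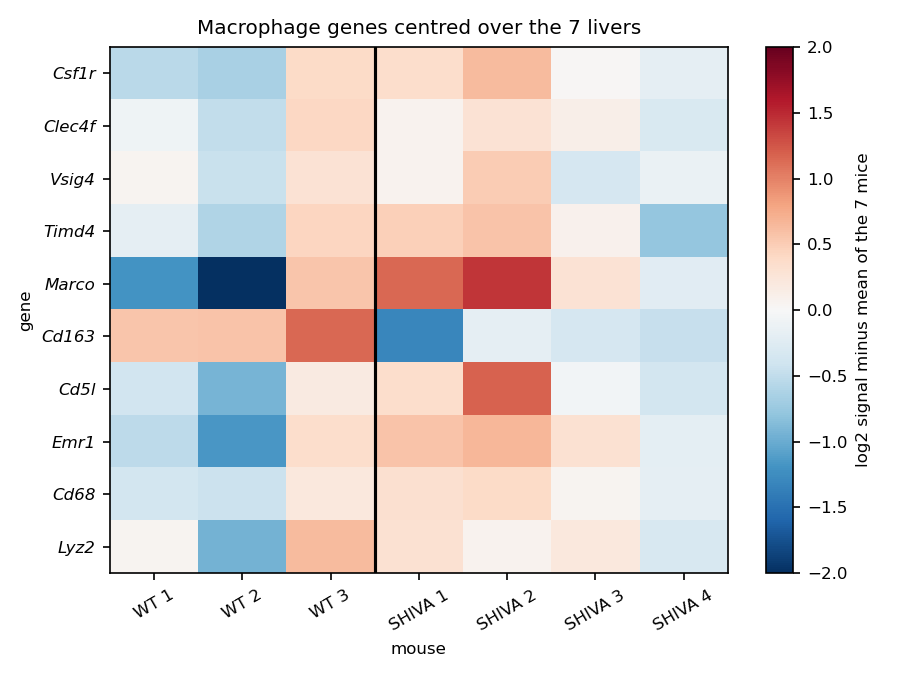
Log2 signal of each macrophage gene (rows) in each liver (columns) minus the mean of the gene over the 7 livers, red above and blue below that mean, with a black line between WT and SHIVA. The column of WT 2 is blue in all rows but Cd163, and those of WT 3 and SHIVA 2 lie above 0 in all rows but Cd163 in SHIVA 2.

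Lists of related genes were read beside the 10. The lists hold 190 further genes that were tested, of which limma called 0 at an adjusted p under 0.05 and 24.7% had an unadjusted p under 0.05, beside 13.3% of all genes. The methods' t-test also called 0. Among these genes the genotypes did not overlap for 19 with higher and 7 with lower SHIVA livers, 10% and 3.68% of them, beside 6.14% and 6.02% of all genes. All lists were chosen with earlier results of these data known, and many of their genes vary together over the livers. The shares are therefore a description and no test. Of other Kupffer cell genes, 23 of 25 were tested, 19 had fitted values above 0 and 4 below, and the median was 0.36. The complement genes C1qa, C1qb and C1qc had log2 fold changes of 0.36, 0.36 and 0.42. Those below 0 were Cd207 at -0.66, Fcna at -0.22, Mertk at -0.12 and Folr2 at -0.10, all with overlap. Vcam1, an adhesion molecule of Kupffer and endothelial cells, had 9.05, 8.73 and 9.66 in WT and 10.17, 10.86, 10.35 and 9.68 in SHIVA livers. WT liver 3 was only just below SHIVA liver 4, and the log2 fold change was 1.12 (SE 0.31, limma adjusted p = 0.196). Clec4n, a lectin that binds fungal mannans, also did not overlap (log2 fold change 0.92, SE 0.30, limma adjusted p = 0.250).

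Ligands and signalling genes of Csf1r all had fitted values above 0, 9 of 9, with a median of 0.433, and 0 of them passed the test or was free of overlap. The ligands had log2 fold changes of 0.15 for Csf1 and 0.28 for Il34 (limma adjusted p = 0.710 and 0.569). Of 16 macrophage transcription factors 11 were above 0 (median 0.24). Zeb2, a repressor needed for macrophage identity, did not overlap between genotypes (log2 fold change 0.74, SE 0.25, limma adjusted p = 0.257), but the mean of its probes gave 0.35 (adjusted p = 0.755) and normexp gave 0.261. Spic, needed for red pulp macrophages, had 0.77, Spi1, the factor PU.1, 0.23, Id3 -0.09 and Nr1h3, the receptor LXRα, -0.11, each with an adjusted p of at least 0.394 in limma.

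Genes for uptake and for handling its products had fitted values on both sides of 0. Of 16 scavenger and phagocytosis genes 13 were tested, Marco, Cd163 and Timd4 included, and 9 were above 0 (median 0.209). Cd36, a receptor for oxidized lipoproteins and fatty acids that hepatocytes also express, was 7.96, 7.91 and 8.13 in WT and 8.59, 9.14, 8.54 and 8.71 in SHIVA livers. All SHIVA livers were above all WT livers, and the log2 fold change was 0.75 (SE 0.18, limma adjusted p = 0.147). Of 12 genes of heme and iron recycling, Cd163 included, 9 were above 0 (median 0.245). Hpx, the heme carrier hemopexin that hepatocytes secrete, had 0.47 without overlap (limma adjusted p = 0.283). Hmox1, which breaks down heme, and Slc40a1, the iron exporter, had 0.45 and 0.28 with overlap. Of 10 LXR target genes, Cd5l included, 4 were above 0 (median -0.0825). The cholesterol exporters Abca1 and Abcg1 were higher without overlap at 0.55 and 0.68 (limma adjusted p = 0.278 and 0.233). Pltp, the phospholipid transfer protein, was lower without overlap at -1.08 and Apoe at -0.05 (adjusted p = 0.215 and 0.895).

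Genes of activated and incoming myeloid cells had fitted values mostly above 0, and 0 of them passed the test. Of 17 inflammatory genes 12 were tested, and 10 of these were above 0 (median 0.755). Il1b, which encodes interleukin 1β, had 4.39, 2.71 and 6.18 in WT livers, not well above background in the liver with 2.71, and 7.16, 7.53, 6.91 and 6.38 in SHIVA livers. WT liver 3 came close to SHIVA liver 4, and the log2 fold change was 2.57 (SE 0.69, limma adjusted p = 0.191). Without WT liver 3 it was 3.45 and passed (limma adjusted p = 0.0216), without WT liver 2 it was 1.71 (adjusted p = 0.361), and it was 1.46 with the mean spot signal and 1.06 with normexp. The chemokines Cxcl10 and Ccl5 also did not overlap, with log2 fold changes of 1.31 and 0.86 (limma adjusted p = 0.144 and 0.294). Of 12 recruited monocyte genes 10 were tested, Ccr2 and Ly6c2 not among them. Of the 10, 9 were above 0 (median 0.642, or 0.593 with Ccl7 at its bound and F13a1, whose bound is under 1-fold, at 0). Ccl7 and F13a1 passed the filter through SHIVA livers alone, and over the 7 genes well above background on all arrays the median was 0.577. Ly6c1 was lower without overlap (log2 fold change -0.83, limma adjusted p = 0.140), but the mean of its probes gave 0.0578. Of 12 genes of alternative activation 8 were tested, and 5 of these were above 0 (median 0.185). Among these, Clec10a, a galactose lectin of macrophages and dendritic cells, was not well above background in any WT liver and passed the filter through SHIVA livers alone. In the main processing its SHIVA mean was 1.32-fold above the background limit of the WT arrays (log2 bound 0.397, limma adjusted p = 0.188). With the mean spot signal and with normexp its log2 fold changes were under that bound, at 0.302 and 0.203.

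**Figure D4:**
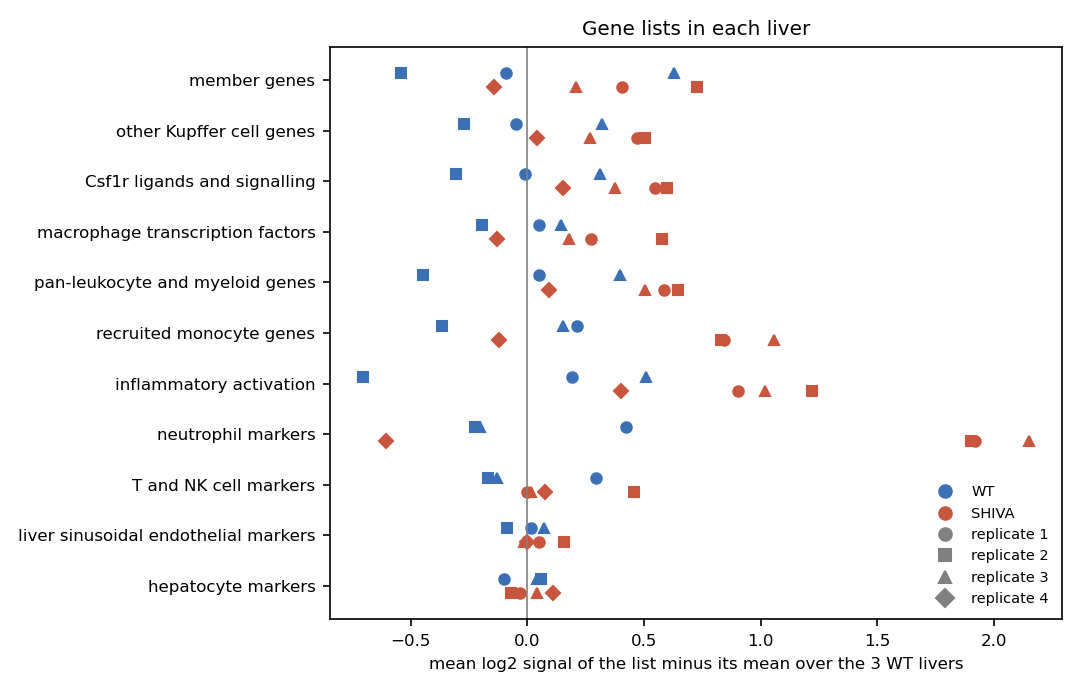
Mean log2 signal of each gene list in each liver minus its mean over the 3 WT livers, WT in blue and SHIVA in red, with marker shapes for the replicate number. In the 10 macrophage genes, other Kupffer cell genes and pan-leukocyte genes WT 2 is the lowest and WT 3 the highest of the WT livers. SHIVA 4 stands apart from the other SHIVA livers in neutrophil markers, and hepatocyte markers span little.

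The order of the livers in other lists was counted in the same way, over the genes tested. WT liver 3 was the highest WT liver in 18 of 23 other Kupffer cell genes and in 18 of 21 pan-leukocyte and myeloid genes. It was also the highest in 5 of 5 bile duct, 8 of 12 sinusoidal endothelial, 7 of 10 stellate cell and 3 of 4 pancreas markers, and in 1 of 8 hepatocyte markers. Neutrophil markers had another order, with WT liver 3 the highest WT liver in 2 of 9 and the lowest in 5. In recruited monocyte genes WT liver 3 was the highest WT liver in 5 of 10, and SHIVA liver 3 was the highest SHIVA liver in 6. WT liver 2 was the lowest WT liver in 19 of 21 pan-leukocyte genes and in 12 of 12 inflammatory genes. SHIVA liver 2 was the highest SHIVA liver in 13 of 23 other Kupffer cell genes and in 9 of 12 inflammatory genes, and SHIVA liver 4 the lowest in 16 of 23 and in 9 of 12. Of the 21 pan-leukocyte and myeloid genes 19 were above 0 between genotypes (median 0.507). Cx3cr1, a chemokine receptor of monocytes, was the one of them without overlap (log2 fold change 0.86, limma adjusted p = 0.283), and the mean of its probes gave 0.398 (adjusted p = 0.549) and normexp 0.253. Mpeg1, the pore-forming perforin 2, had 1.14 and Itgam, an integrin chain of myeloid cells, -0.67 (limma adjusted p = 0.193 and 0.243).

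Markers of other cell types were read in the same livers, and their part in the values above was not tested. The mean log2 signal of the 9 neutrophil markers tested, of 12, was between 5.86 and 6.51 in WT livers and 8.00, 7.99, 8.23 and 5.48 in SHIVA livers 1 to 4, with a median log2 fold change of 1.04. SHIVA liver 4 had a lower list mean than any WT liver. The granule protein genes Mpo, Ltf and Ngp were well above background in 0 of 3 WT and 3 of 4 SHIVA livers. The genotypes overlapped (limma adjusted p = 0.233, 0.430 and 0.492). Set against the background limit of the WT arrays, their SHIVA means were 3.50, 2.07 and 2.57-fold higher. These genes passed the filter on dim signals through SHIVA livers alone, which favours values above 0. Their log2 signals in SHIVA liver 4, 1.162, 1.353 and 1.438, were not well above background and enter its list mean. The same holds for their signals in WT livers. Over the 5 markers well above background on all 7 arrays the median was 1.02. Of the 9 markers 7 were above 0. Elane and Csf3r, well above background in every liver, had -0.04 and -0.01. The 10 macrophage genes had list means of 8.95 to 10.12 in WT and 9.35 to 10.22 in SHIVA livers. Hepatocyte markers stayed between 15.66 and 15.82 in WT and between 15.69 and 15.87 in SHIVA livers, and 12 sinusoidal endothelial markers between 9.09 and 9.26 and between 9.17 and 9.34 (medians 0.0337 and 0.0171). Among the 20 lists, only dendritic cell markers and erythroid and platelet markers had list means without overlap between genotypes. Erythroid and platelet markers, 6 of 9 tested, were at 8.83 to 9.13 in WT and 9.27 to 10.07 in SHIVA livers. Dendritic cell markers, 6 of 9 tested, were at 6.17 to 6.62 and 6.71 to 7.26. The median log2 fold change of the dendritic cell list, 0.663, fell to 0.280 with the mean signal and to 0.191 with normexp. Medians over tested genes were 0.143 for 10 of 12 T and NK cell genes and 0.145 for 5 of 8 B cell genes. They were 0.663 for 6 dendritic cell genes, 0.223 for 10 stellate cell genes and 0.633 for 6 erythroid and platelet genes. For 4 of 8 pancreas genes and 5 of 7 bile duct genes they were 0.135 and -0.549. Markers without overlap and higher in SHIVA livers were Ccr7, Flt3, Acta2, Rgs5, Hbb-bt, Alas2 and Cela2a. Their log2 fold changes were 0.98, 0.81, 0.78, 0.67, 0.64, 0.63 and 0.92. Those lower were Cd22, Des, Cldn7 and Ttr, at -0.21, -0.24, -0.51 and -0.32. Each had a limma adjusted p of at least 0.1386. With normexp Ccr7, Flt3 and Cela2a fell to 0.434, 0.211 and 0.166. Lists of blood cells overlap with macrophages in what they express, so these values do not name the cells behind a signal.

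The genes whose centred pattern over the 7 livers was nearest to Clec4f were Tmem181a, Gas6 and Reep5, at root mean square distances of 0.0895, 0.0909 and 0.099 log2 units, where Clec4f itself ranged over 0.91. Those nearest to Csf1r were Tmem273, Irf1 and Tlr13, at 0.113, 0.117 and 0.118, where Csf1r ranged over 1.28. These names are a description over 7 livers that share 1 slide.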

How the data were processed

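The livers were measured on single-colour Agilent arrays of 62976 spots, 3671 of them controls. The authors deposited, per array, spot intensity values from Agilent Feature Extraction 10.5.1.1 (per the labels), detrended over the slide, with no local background subtracted, surrogates for low signals and no scaling between arrays. A second deposited file holds log2 values, quantile normalized according to the study's methods. Its ranks matched those of the mean spot signal (smallest rank correlation 1).

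From the processed intensities, spots marked as uneven or deviant (120 to 163 per array) were left out, the rest was quantile normalized over the 7 arrays, put on the log2 scale and averaged per probe. Gene names were updated for 26413 probes through the RefSeq table of GRCm38.p6, and a gene was represented by its brightest probe on average. Genes well above background on at least 3 arrays were tested with limma 3.58.1 in R 4.3.3 (lmFit and eBayes, SHIVA minus WT, no covariate) with the Benjamini-Hochberg adjustment over all genes and a threshold of 0.05. The number of arrays limits the precision. Intervals are 95% from limma. A gene not well above background in any WT liver has a bound, the SHIVA mean over the background limit of the WT arrays. That limit is the lowest signal called well above background on an array, or the gene's own signal where higher. A probe can exceed the lowest such signal without being well above background, so the bound is approximate. The bound holds for these processed intensities only. For single genes on the arrays the methods give no test of their own, and their general unpaired t-test was run as the methods' t-test on the same values.

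All 10 genes are named, with Sox17, and from 20 lists the genes without overlap, at most 4 per list. Markers of other cell types are given by counts and levels, and the 3 genes nearest to Clec4f and to Csf1r by root mean square difference. Further genes were named after their values were seen, among them C1qa, C1qb, C1qc, Cd207, Fcna, Mertk, Folr2, Csf1, Il34, Spic, Spi1, Id3, Nr1h3, Hmox1, Slc40a1, Mpeg1, Itgam, Lyz1, Mpo, Ltf, Ngp, Elane, Csf3r, Ccl7 and F13a1. The 10 genes and all lists were chosen with earlier results of these data known. No batch term was possible with 1 slide and 1 scan.

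Alternatives were 75th percentile scaling, the mean signal without background correction, normexp (offset 50), the authors' table, the dim-probe filter removed or set to all 7 arrays, probes of a gene averaged or taken singly, weights per array, a block for the replicate number, each mouse left out, and the t-test. The steps were tested on simulated data for 20002 genes, 200 of them shifted by 2 on the log2 scale. Calls recovered 84% of the shifted genes, with the right sign in 100%, and 2.33% of calls fell on genes without a shift. Each gene was drawn independently, so these rates do not cover genes that vary together over the livers. Smaller changes were not simulated. With no change put in, 1 gene was called.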

Additional observations from a re-analysis of the deposited data

Results flagged for a closer look

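A set of 56 genes and the 21 list means were searched among the 4 SHIVA livers for one far from the others, by Dixon's test of the gap to the nearest liver. The genes were the 10 macrophage genes, Sox17 and the list genes given values in the text, Elane, Csf3r, Cd207, Fcna, Mertk and Folr2 aside. It found 1 gene and 1 list mean, where chance would give about 3.85 of 77 independent items. The 77 come from the same livers and are not independent, and the gene found was named after its values were seen. The chance count is therefore no measure of these finds. Mpo, which encodes the neutrophil granule enzyme myeloperoxidase, had a log2 signal of 1.162 in SHIVA liver 4, not well above background, and of 6.191 to 6.982 in the other SHIVA livers. The list mean of neutrophil markers, Mpo among them, was 5.479 in SHIVA liver 4 and 7.987 to 8.234 in the others. That mean takes in Mpo, Ltf and Ngp, none of them well above background in SHIVA liver 4. The cause was not tested. None of the 10 macrophage genes was found. The 3 WT livers were too few to search.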

How the results depend on the processing

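Under all 17 alternatives 0 of the 10 macrophage genes passed, and their median log2 fold change stayed above 0, from 0.0947 without WT replicate 2 to 0.529 without WT replicate 3. Cd163 stayed below 0 in the 16 alternatives that could test it (-1.56 to -0.425, adjusted p 0.0675 to 0.349), as it was dim and left out by the filter on all 7 arrays. Single-mouse changes of sign were confined to 4 genes: without 1 mouse Clec4f ranged from -0.125 to 0.33, Timd4 from -0.0350 to 0.497, Vsig4 from -0.138 to 0.231 and Lyz2 from -0.276 to 0.515, lowest in each without WT replicate 2, and Vsig4 was also below 0 without SHIVA replicate 2 (-0.0935). A single probe turned the sign of Csf1r (-0.0852), and the mean of its probes that of Ly6c1 (0.0578). Of the 10 genes, 5 had fitted values above 0 without WT replicate 2 and 8 without SHIVA replicate 2, against 9 otherwise where all were tested.

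The count of all genes called, 75, was 142 with the mean signal, 142 with the authors' table, 13 without a filter, 268 with array weights and 0 with the t-test (2301 at an unadjusted p under 0.05). Without 1 mouse it ranged from 3 (without WT replicate 1) to 416 (without WT replicate 3), with 8 without WT replicate 2, 7 without SHIVA replicate 1 and 13 without SHIVA replicate 3. With the replicate number as a block it was 32, 2 list genes passed (Mpo and Ngp), and 0 of the 10 genes did; SHIVA replicate 4 has no WT partner and adds nothing to that difference. The deviations of same-numbered WT and SHIVA livers from their group means correlated at -0.0491, 0.0125 and 0.236. Livers with unlike numbers correlated at -0.195 to 0.203. The labels do not say what the number stands for, and these few values cannot decide whether livers were paired. Further list genes called numbered 1 with the mean signal (Ly6c1) and from 0 to 6 without 1 mouse, the 6 without WT replicate 3 being Csf2ra, Cxcl9, Il1b, Irf5, Itgax and Mpeg1. List medians moved by more than the SD between mice for hepatocytes with 75th percentile scaling (-0.0940), dendritic cells with the mean signal, normexp and the authors' table (0.280, 0.191 and 0.278) and pancreas without a filter (-0.0831). Without 1 mouse, medians changed sign for endothelial cells (-0.0534 to 0.109), alternative activation (-0.0724 to 0.246), B cells (-0.0833 to 0.409), T and NK cells (-0.0143 to 0.311), pancreas (-0.00727 to 0.246) and hepatocytes (-0.0216 to 0.061). They kept their sign but moved by over 1.5 times for neutrophils (0.513 to 1.7), pan-leukocyte genes (0.191 to 0.722), inflammatory genes (0.379 to 0.999), monocytes (0.407 to 0.849), transcription factors (0.0679 to 0.407), Csf1r signalling (0.264 to 0.657), scavenger genes (0.123 to 0.487), LXR targets (-0.102 to -0.0255), stellate cells (0.0754 to 0.391) and bile duct (-0.962 to -0.403). The causes were not tested. The dimmest genes, Cd163 among them, are limited by signal over background.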
